A study of Mus musculus with 19 samples.

Results

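The genes described here are 10 genes used as markers of the choroid plexus epithelium, *Ttr*, *Kl*, *Folr1*, *Clic6*, *Kcne2*, *Slc4a5*, *Aqp1*, *Prlr*, *Tmem72* and *Otx2*. They were found by symbol, and all 10 are among the 14996 genes that the deposited table lists for 19 cortex libraries.

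The choroid plexus is a vascular fold of tissue in the brain ventricles. Its epithelium secretes cerebrospinal fluid by moving ions and water, and it releases carrier proteins such as transthyretin into the fluid. It is not a part of the cortex, so RNA of this epithelium in a cortex sample is RNA of a neighbouring tissue, although some of the 10 genes are also made by other brain cells.

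The study asked how a high fat diet (HFD) compared with a normal diet (ND) alters the brain of APP23 mice, a C57BL/6 line that carries human APP with the Swedish familial mutation and develops amyloid plaques. All 19 mice were hemizygous for this transgene, and no mouse without it is among them. The mice were on average 11.7 months old at the start, were fed for 3 months and were tested for behavior at 14.7 months, and 40% of the calories of the HFD came from fat, given as milk fat and corn oil. The ND groups held 6 females and 4 males, and the HFD groups held 5 females and 4 males. Each mouse gave 1 library, made from cortex taken after perfusion with buffered saline.

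The libraries held from 9308206 to 17178044 reads. Every library of a male (at most 10844280 reads) was shallower than every library of a female (at least 11727151 reads), so sex and depth cannot be told apart here. Pairs of libraries of 1 group differed beyond sampling noise in all 37 pairs (chi-square per degree of freedom 4.51 to 18.3), and none was treated as a copy. *Slc17a7*, the vesicular glutamate transporter of cortical excitatory neurons, was present in each library, at 976 to 1640 RPM (reads of a gene scaled to the same total in each library) in 16 libraries and at 1050, 1530 and 1420 RPM in ND female F1102, HFD female F1063 and ND male F1080.

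A few libraries stood apart in these genes. In ND female F1102, HFD female F1063 and ND male F1080, *Ttr* was at 341, 243 and 143 RPM, while the other 16 libraries lay between 2.14 and 25.5 RPM with a median of 8.84. These 3 libraries come from 3 of the 4 groups and from both diets. The comparisons of the 10 genes below are given with all 19 libraries and without these 3, a setting chosen after the values were seen. In bulk RNA, more cells of a type and more RNA per cell cannot be told apart.

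The promoters of *Kcne2* and *Slc4a5*, whose levels were among the closest to those of *Ttr*, and of *Otx2*, the transcription factor among the 10 genes, are shown from RefSeq on GRCm38.p6, each with 250 bases before and 50 bases after the annotated start. The table of promoters used here gives 13 such windows for 7 of the 10 genes and none for *Ttr*, *Folr1* and *Clic6*. Capitals mark a match to TAATCC, the core that OTX2 and related homeobox factors bind, or to TAATCT, a one-letter variant added after the first search, on either strand.
Kcne2, chr16:92292139-92292438, + strand: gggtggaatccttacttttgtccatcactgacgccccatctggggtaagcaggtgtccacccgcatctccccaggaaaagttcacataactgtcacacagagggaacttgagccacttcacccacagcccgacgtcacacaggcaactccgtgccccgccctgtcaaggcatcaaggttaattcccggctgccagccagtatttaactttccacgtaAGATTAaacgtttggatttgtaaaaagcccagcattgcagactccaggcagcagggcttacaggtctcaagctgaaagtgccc
Slc4a5, chr6:83237125-83237424, + strand: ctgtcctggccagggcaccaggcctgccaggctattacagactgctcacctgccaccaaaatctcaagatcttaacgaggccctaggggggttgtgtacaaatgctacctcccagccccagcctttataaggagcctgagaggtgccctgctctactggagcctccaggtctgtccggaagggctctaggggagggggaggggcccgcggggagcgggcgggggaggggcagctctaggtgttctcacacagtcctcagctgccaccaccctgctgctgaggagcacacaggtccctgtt
Otx2, chr14:48665060-48665359, - strand: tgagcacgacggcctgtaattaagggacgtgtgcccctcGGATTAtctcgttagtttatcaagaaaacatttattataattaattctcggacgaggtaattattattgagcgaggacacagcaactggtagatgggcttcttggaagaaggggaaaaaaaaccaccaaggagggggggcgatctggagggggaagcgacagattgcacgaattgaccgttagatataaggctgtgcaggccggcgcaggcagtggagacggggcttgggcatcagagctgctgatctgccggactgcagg
The match in *Kcne2* is to TAATCT and begins 33 bases before the start. The match in *Otx2* is to TAATCC and begins 211 bases before the start of 1 of its 4 windows. No other window of the 10 genes holds either motif, and among all 32851 windows 7.06% hold TAATCC and 8.19% hold TAATCT. A match is a description of these letters and not of a bound site, and no measurement of binding was made in these mice.

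*Ttr* encodes transthyretin, which carries thyroid hormone and the retinol-binding protein in cerebrospinal fluid and is the best known product of this epithelium. In ND females it ranged from 5.41 to 341 RPM with a median of 13.6. In HFD females it was at 243, 18.5, 25.5, 5.39 and 5.56 RPM. In ND males it was at 11.7, 143, 2.14 and 4.08 RPM, and in HFD males at 15.2, 11.7, 2.54 and 3.04 RPM. Apart from the 3 libraries, the 4 groups overlapped throughout. Per kilobase of exon *Ttr* was the highest of the 10 genes, with a median of 7.45 RPM per kilobase over the 16 other libraries and 121 to 288 in the 3 libraries. *Clic6* followed at 2.29, *Kl* at 0.531 and *Aqp1* at 0.447, and the remaining 6 genes had medians between 0.0139 and 0.109 RPM per kilobase.

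*Kcne2*, a potassium channel subunit, and *Slc4a5*, an electrogenic sodium bicarbonate cotransporter, are both part of the machinery that moves ions across this epithelium. *Kcne2* was at 2.92 RPM in ND female F1102, 2.03 in HFD female F1063 and 1.44 in ND male F1080, and at 0 to 0.422 RPM in the other 16 libraries. *Slc4a5* was at 3.31, 3.11 and 1.23 RPM in the same 3 libraries and at 0 to 0.311 RPM in the others. The 3 libraries lay above all others for both genes, but both are over 1 RPM only in these 3. Every gene of the table is over 1 RPM in at least 2 libraries, so this separation in part follows from their being in the table. The counts are small, at most 38 reads of *Kcne2* and 43 of *Slc4a5* in a library and a median of 1 read each in the other 16. *Tmem72*, a membrane protein of little known role, was at 2.08, 1.01 and 1.03 RPM in the 3 libraries and at 0 to 0.991 RPM in the others, where ND male F1079 came closest. Of the 190 values of the 10 genes, 7 were 0 reads, which allow a level of up to 0.203 to 0.322 RPM by counting error alone.

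*Folr1*, *Kl* and *Prlr* encode proteins that bind vitamins and hormones. *Folr1*, the folate receptor by which folate passes into cerebrospinal fluid, was at 2.69, 1.74 and 0.615 RPM in F1102, F1063 and F1080, and at 0 to 0.685 RPM in the other 16 libraries, so F1080 was not set apart in it. *Kl*, the coreceptor of the hormone FGF23, was at 17.6, 9.63 and 12.1 RPM in the 3 libraries, above the 2.9 to 8.91 RPM of the other 16. *Prlr*, the prolactin receptor, was at 12.1, 5.57 and 5.64 RPM, and the other 16 libraries reached from 0.294 to 6.84 RPM, with ND male F1079 above both F1063 and F1080. These 3 genes were 1.94- to 12.5-fold above the median of the other libraries, less in each of the 3 libraries than *Ttr*, which was 16.2- to 38.6-fold above.

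*Aqp1*, the water channel of the epithelium's ventricular face, *Clic6*, a chloride channel family member, and *Otx2*, a homeobox factor that this epithelium needs to form, followed the 3 libraries less. *Aqp1* was highest in ND males F1131 and F1079, at 10.2 and 9.91 RPM, and ND female F1102, the library highest in *Ttr*, was only the tenth of the 19 at 1.77 RPM. *Clic6* was at 20.6 RPM in F1102, close to ND male F1079 at 20.1, and at 6.15 RPM in F1063, the fourteenth of the 19. *Otx2* was at 1.46, 0.796 and 1.54 RPM in the 3 libraries, and ND male F1079 was the highest at 1.78. *Otx2* rested on 1 to 24 reads in a library.

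**Figure D1:**
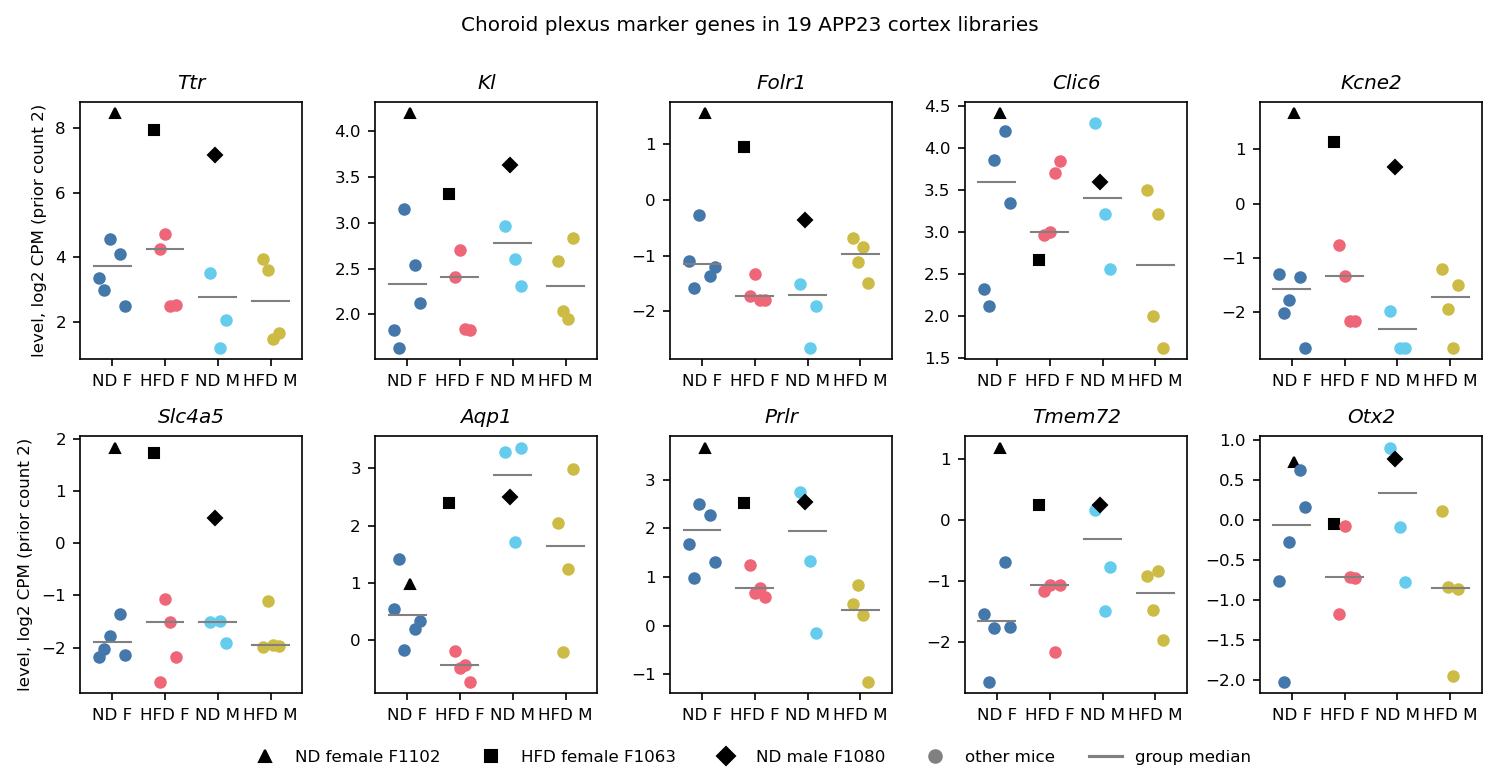
Level of each of the 10 genes in log2 CPM (counts scaled by library total and TMM factor, prior count 2; vertical axis, its range set for each gene) in every mouse, by diet and sex (F, female; M, male). Each point is 1 mouse, black symbols are the 3 libraries highest in Ttr and grey lines are group medians. The black symbols lie above all others for Ttr, Kl, Kcne2, Slc4a5 and Tmem72, and within the others for Aqp1.

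Reads counted per 1000 reads of *Ttr* show how far the genes kept 1 ratio in the 3 libraries (exact Clopper-Pearson 95% intervals, for counting error only). *Kcne2* was at 8.57 (6.05 to 11.8) in F1102, 8.35 (5.54 to 12.1) in F1063 and 10.1 (5.48 to 16.9) in F1080. *Slc4a5* was at 9.69 (7.01 to 13.1), 12.8 (9.27 to 17.3) and 8.62 (4.44 to 15.1). The intervals of these genes overlapped in all 3 libraries, as did those of *Folr1* (7.89, 7.16 and 4.31) and *Tmem72* (6.09, 4.18 and 7.18). *Kcne2*, *Slc4a5*, *Folr1* and *Tmem72* rest on 6 to 43 reads in a library here, against 55 to 158 for *Prlr*, so their intervals are wide. Overlap of intervals this wide does not show that a ratio was kept. Only libraries among these 3 have them over 1 RPM. The tight junction gene *Cldn2*, a marker of the same epithelium from the other list, was at 7.66, 8.95 and 7.18, again with overlapping intervals, on 10 to 34 reads. It reached at most 0.685 RPM in the other 16 libraries, so it too is in the table only through the 3. *Aqp1* had no such ratio, at 5.18 (3.28 to 7.79), 20.9 (16.2 to 26.5) and 38.1 (28.4 to 50.1), and its 3 intervals were separate. *Clic6* was at 60.4, 25.4 and 83.3, *Kl* at 51.6, 39.7 and 84.8, and *Prlr* at 35.6, 23 and 39.5. For *Clic6*, *Kl* and *Prlr* the interval of F1063 lay below that of F1080. It also lay below that of F1102 for *Clic6* (20.2 to 31.4 against 53.2 to 68.4) and *Prlr* (18.1 to 28.8 against 30.2 to 41.7), while for *Kl* those 2 intervals overlapped and F1102 (45 to 59) lay below F1080 (69.6 to 102). *Otx2* was at 4.28, 3.28 and 10.8, and its F1063 and F1080 intervals did not overlap.

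**Figure D2:**
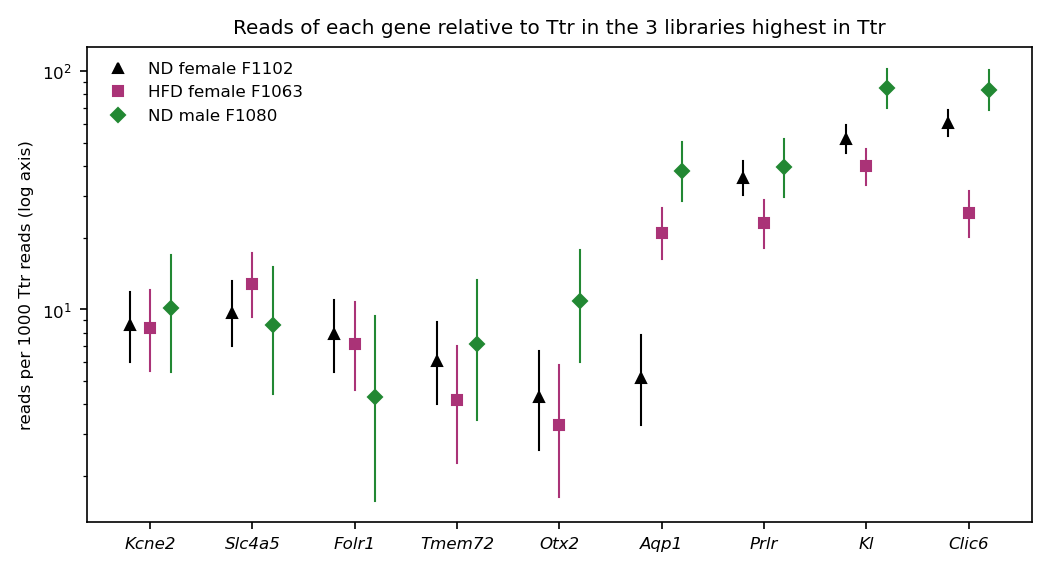
Reads of each of the other 9 genes per 1000 Ttr reads (vertical log axis) in the 3 libraries highest in Ttr. Points are ratios and lines are exact 95% intervals of the counts. Kcne2 lies near 8.57, 8.35 and 10.1 in the 3 libraries, while Aqp1 goes from 5.18 to 38.1.

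In the other 16 libraries, which hold fewer *Ttr* reads by the way the 3 were picked, the median of *Kl* was 496 reads per 1000 *Ttr* reads, that of *Clic6* 1010, that of *Prlr* 238 and that of *Aqp1* 164. For *Kcne2* and *Slc4a5* the medians were 10.1 and 13, each resting on a few reads a library, with values from 0 to 64.5 and from 0 to 90.9.

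Some other genes of the epithelium were also higher in the 3 libraries. Of a list of 28 further markers, 18 are in the table. Of these 18, 4 were above all other 16 libraries in each of the 3, 7 in 1 or 2 of the 3 and 7 in none. Above the median of the other 16, 13 lay in each of the 3 libraries, 4 in 1 or 2 of them and 1, the sulfatase *Sulf1*, in none, at 35, 36 and 31.4 RPM against a median of 37.9. The share of all genes that lay so was not computed. These counts are therefore values and not a result about the list. Every gene of the table is over 1 RPM in at least 2 libraries, a condition that *Cldn2* meets only through the 3 libraries. The summed level of the 18 ran from 392 to 709 RPM. The 3 highest sums belonged to F1102 at 709 RPM, F1063 at 563 and F1080 at 526. *Enpp2*, an autotaxin that oligodendrocytes also make, gave most of that sum, with 506, 403 and 351 RPM against 236 to 321 RPM in the other 16 libraries. *F5*, coagulation factor V, was at 5.46, 3.47 and 2.05 RPM against 0.39 to 1.59 RPM, and *Cldn2* at 2.61, 2.17 and 1.03 RPM against 0.0639 to 0.685 RPM. *Sostdc1*, a secreted inhibitor of BMP and Wnt signalling, was at 3.77, 1.74 and 1.95 RPM, and the others reached from 0.196 to 2.12 RPM. The genes of ependyma, the ciliated lining of the ventricles, ranked F1102 first with a sum of 47.6 RPM, but F1080 eleventh at 27 and F1063 fifteenth at 24.6. Red cell genes were highest in F1063 at 93.4 RPM, while F1080, at 20.8, ranked 5 and F1102, at 2.31, ranked 17 of the 19. The olfactory bulb genes were eleventh in F1102, eighteenth in F1063 and seventh in F1080. What set the 3 libraries apart was not tested.

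Of the 10 genes, 6 passed the filter on low counts used for the tests. Within the groups, mice differed more in these 6 than in nearly all other genes tested. The SD of log2 CPM within groups was 2.14 for *Ttr* and 0.71 for *Kl*, the lowest of the 10, while the median over the 14834 genes tested was 0.15. The 6 lay at or above the 98.5th percentile of those genes. *Folr1*, *Kcne2*, *Slc4a5* and *Tmem72* did not pass the filter and are over 1 RPM only among the 3 libraries. Their wide SD with all 19 libraries therefore follows in part from their being in the table. Without the 3 libraries the SD was 1.1 for *Ttr*, 0.47 for *Slc4a5* and 0.43 for *Folr1*, the latter at the 92nd percentile, while *Clic6* (0.82) and *Otx2* (0.83) kept nearly the SD they had with all 19 (0.81 and 0.83). Low counts add to the SD of the genes with few reads.

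Across the 19 libraries the median Pearson r of log2 CPM over the 45 pairs of these genes was 0.61, and without the 3 libraries it was 0.18. These r are descriptions of libraries that share a tissue and a depth range. *Folr1*, *Kcne2*, *Slc4a5* and *Tmem72* are in the table only through the 3 libraries, which were picked by *Ttr*. Their r over 19 libraries with each other and with *Ttr* therefore in part follows from that. *Ttr* and *Kcne2* had r = 0.94 over 19 libraries and 0.73 over 16. *Ttr* and *Slc4a5* had r = 0.85 and 0.16, and *Ttr* and *Kl* 0.77 and 0.33. *Aqp1* had no such relation to *Ttr*, with r = 0.03 over 19 and -0.43 over 16, and *Clic6* had 0.31 and 0.25.

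By the mean profile of the 6 genes that passed the filter on low counts, the 12 most similar genes of the table were *F5*, *Sostdc1*, *Prkcd*, *Vwa5b1*, *Col8a2*, *Prdm16*, *Lbp*, *Rasd1*, *Slc2a12*, *Slc25a13*, *Zfp354a* and *Slc14a2*. Their r with that profile ran from 0.83 to 0.7 over 19 libraries. Without the 3 libraries it ran from 0.52 (*Col8a2*) to 0.82 (*Prdm16*), with *F5* at 0.64, *Sostdc1* at 0.63, *Lbp* at 0.56 and *Prkcd* at 0.80. *F5*, *Sostdc1* and *Lbp* are in the list of further epithelium markers, and *Prkcd*, a kinase abundant in thalamic neurons, is in the thalamus list.

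*Aqp1* and *Clic6* each went with the genes of another brain region. *Aqp1* had r = 0.80 over 19 libraries with the mean of 8 olfactory bulb genes, such as *Th*, which makes dopamine in bulb interneurons, and *Tbx21*, a factor of its output neurons. Over the 16 libraries r was 0.94, and over 19 with group means removed it was 0.56. F1063 and, less so, F1102 lay above that relation, with *Aqp1* at 2.40 and 0.98 and the bulb mean at 1.54 and 1.61 in log2 CPM, while the 4 other libraries with a bulb mean of 1.5 to 1.8 had *Aqp1* at -0.72 to -0.19. *Clic6* had r = 0.92 over 19 and 0.95 over 16 libraries with the mean of 6 genes of basal forebrain cholinergic neurons, a list added after the genes most like *Clic6* had been seen. Of its 6 genes, *Chat*, *Lhx8* and *Isl1* are among the 12 most like *Clic6*, so this r in part restates that choice. With group means removed this r was 0.91 over 19 libraries. *Chat*, which makes acetylcholine, was among the 4 genes most like *Clic6* of all those compared (r = 0.92), beside *Ecel1* (0.96) and *Cacna2d2* (0.95). *Kl* had r = 0.89 over 19 and 0.71 over 16 libraries with the further epithelium markers, and r = 0.60 and 0.82 with genes of meninges and fibroblasts. *Prlr* was most like *Sostdc1* (r = 0.89 over 19 and 0.80 over 16 libraries) and *Col6a3*, a collagen (0.86 and 0.85).

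**Figure D3:**
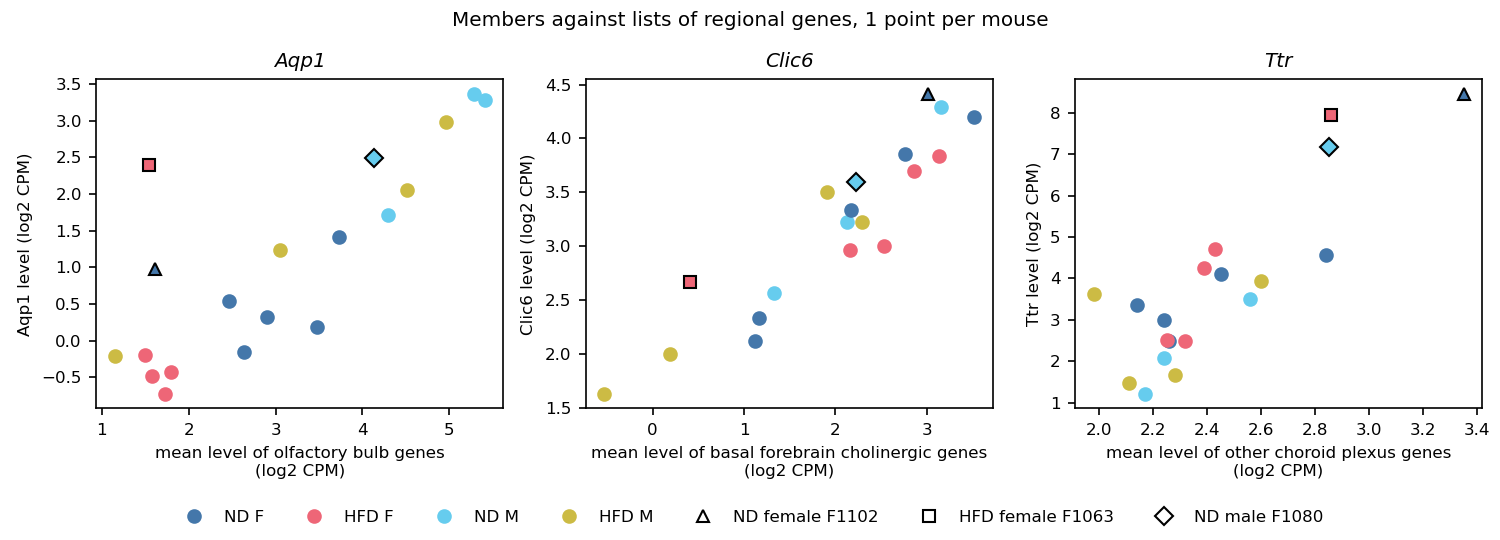
Level of Aqp1, Clic6 and Ttr (vertical axes, log2 CPM) against the mean level of genes of the olfactory bulb, of basal forebrain cholinergic neurons and of 18 further choroid plexus markers (horizontal axes, log2 CPM), 1 point per mouse, coloured by group. Aqp1 is higher than in the other libraries of a like bulb mean in F1063 (2.40, bulb mean 1.54) and in F1102 (0.98, bulb mean 1.61). The 3 outlined libraries were picked as the highest in Ttr.

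The main comparison was HFD against ND over both sexes, with a term for sex, by the quasi-likelihood test of edgeR. Of the 10 genes, 6 passed the filter on low counts and were tested. *Prlr* was lower on HFD, with a log2 fold change of -1.31 (SE 0.45, unadjusted p = 0.0091), and *Otx2* was lower, with -0.87 (SE 0.38, unadjusted p = 0.0328). Neither passed adjustment over all genes by Benjamini-Hochberg (adjusted p = 0.24 and 0.339), and no gene of the table did. Among all 14834 genes tested, 12.4% had an unadjusted p under 0.05, and 6.99% were lower at that threshold. No adjusted call among the 10 genes was made by DESeq2 or limma-voom either, and at an unadjusted p under 0.05 they called 2 of the 10 each, *Otx2* and *Prlr* by DESeq2 and *Aqp1* and *Prlr* by limma-voom. The log2 fold changes of *Ttr*, *Kl*, *Clic6* and *Aqp1* were -0.87 (SE 1.04), -0.44, -0.49 and -0.46, with unadjusted p from 0.162 to 0.417. The median of the 6 genes was -0.68, and over all genes it was 0. Without the 3 libraries highest in *Ttr*, *Otx2* did not pass the filter. The other genes were then at 0.24 (*Ttr*), -0.19 (*Kl*), -0.28 (*Clic6*), -1.08 (*Aqp1*) and -1.31 (*Prlr*). With no filter as well, *Otx2* was at -0.79. Only *Ttr* turned in direction, while *Prlr* was unchanged and *Aqp1* moved further from 0. The 6 genes vary widely and in part together between mice, so their median is no result about the set.

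*Prlr* was lower on HFD in both sexes by its medians, but the diets overlapped. In ND females it ranged from 1.79 to 12.1 RPM with a median of 3.84, and in HFD females it was at 5.57, 2.18, 1.4, 1.54 and 1.34 RPM. In ND males it was at 6.84, 5.64, 2.34 and 0.752 RPM, and in HFD males at 1.2, 1.55, 0.976 and 0.294 RPM. Of the 5 HFD females, 3 lay below every ND female, and of the 4 HFD males 1 lay below every ND male. Its call over both sexes held without each library in turn (-1.71 to -1.02) and without the 3 libraries (-1.31, SE 0.37, unadjusted p = 0.00254, adjusted p = 0.244). With the mean of 7 thalamus genes as a covariate it was -0.90 (unadjusted p = 0.248). That mean itself went with diet, at 3.19 to 3.67 log2 CPM in ND females and 2.78 to 3.14 in HFD females. Covariate and diet can therefore not be told apart in females.

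*Otx2* was at 0.0853 to 1.46 RPM in ND females (median 0.816) and at 0.796, 0.281, 0.776, 0.449 and 0.447 RPM in HFD females. In ND males it was at 1.78, 1.54, 0.779 and 0.43 RPM and in HFD males at 0.922, 0.388, 0.0976 and 0.392 RPM. The diets overlapped in both sexes. Its call was lost without any 1 of 8 libraries, HFD females F1076, F1100 and F1252, HFD males F1065, F1129 and F1145 and ND males F1079 and F1080 (-0.85 to -0.74, unadjusted p from 0.0509 to 0.0705). In a further 3 of the 19 fits, without ND females F1102, F1104 or F1139, it did not pass the filter and was not tested. Without the 3 libraries it was tested only with no filter, and was -0.79 (unadjusted p = 0.0797). With the thalamus covariate, which itself went with diet in females, it was -0.13 (unadjusted p = 0.823).

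The direction of *Ttr* turned with the 3 libraries. Without them its log2 fold change was 0.24 (SE 0.49, unadjusted p = 0.638), while without HFD female F1063 alone it was -2.30, past the unadjusted threshold, and without ND female F1102 alone it was 0.46. *Aqp1* passed the unadjusted threshold without the 3 libraries (-1.08, SE 0.40, unadjusted p = 0.015, adjusted p = 0.299), and it did so without F1063 alone (-1.05, unadjusted p = 0.0103). With no filter on low counts, the 4 genes left out of the main test had log2 fold changes of -0.29 (*Folr1*), -0.35 (*Kcne2*), -0.15 (*Slc4a5*) and -0.64 (*Tmem72*), with unadjusted p from 0.306 to 0.876. *Kcne2*, *Slc4a5* and *Tmem72* were over 1 RPM only in the 3 libraries, and *Folr1* only in 2 of them.

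**Figure D4:**
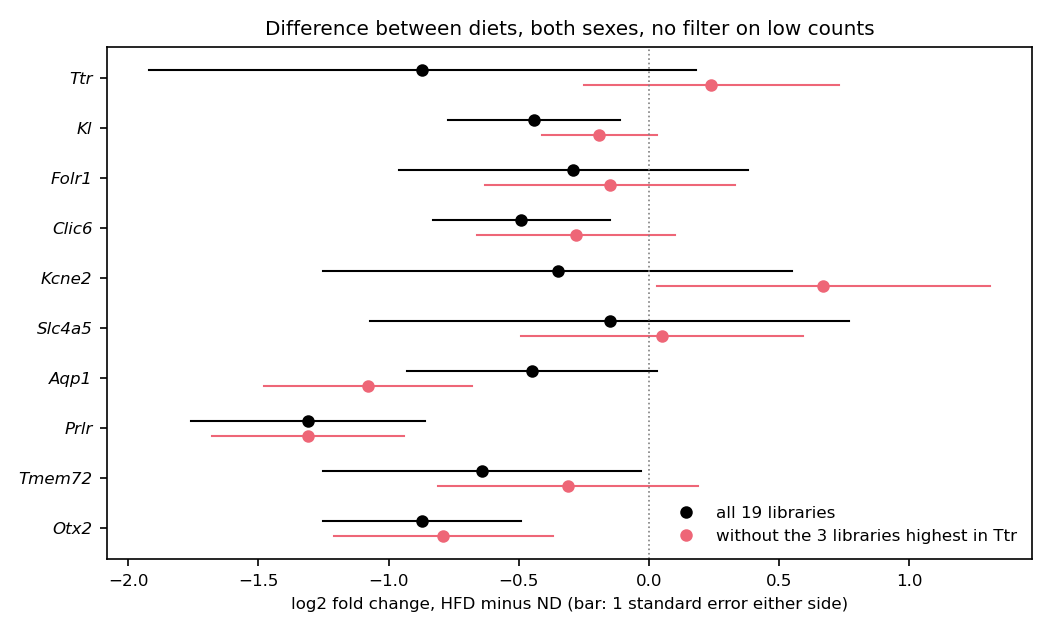
Log2 fold change of HFD minus ND over both sexes (horizontal axis) for the 10 genes, with no filter on low counts. Points are estimates and lines reach 1 SE to each side, in black for all 19 libraries and in red without the 3 libraries highest in Ttr. Prlr is at -1.31 in both, Ttr goes from -0.87 to 0.24, and Aqp1 from -0.45 to -1.08.

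In females alone, none of the 6 genes tested passed even the unadjusted threshold, by edgeR, DESeq2 or limma-voom, beside 8.42% of all genes by edgeR (3.92% higher and 4.5% lower). *Prlr* had the smallest p, with a log2 fold change of -1.03 (SE 0.53, unadjusted p = 0.0766), and *Ttr* was at -0.19 (SE 1.4). Without F1102 and F1063, *Prlr* (-1.10, unadjusted p = 0.00586) and *Aqp1* (-1.15, unadjusted p = 0.00936) passed it, with adjusted p of 0.22 and 0.247. *Aqp1* was at 0.704, 0.543, 0.577 and 0.447 RPM in the HFD females other than F1063, all below the 0.754 to 2.47 RPM of the ND females, while F1063 was above them at 5.07 RPM. With the olfactory bulb mean as a covariate 5 of the 10 genes passed the unadjusted threshold in females, *Folr1*, *Kcne2*, *Kl* (-1.42), *Prlr* (-2.07) and *Tmem72*, and with the mean of the further epithelium markers 2 did, *Prlr* (-0.69) and *Slc4a5*. None of these passed adjustment. *Folr1*, *Kcne2*, *Slc4a5* and *Tmem72* had not passed the filter in the main fit of females. The share of all genes called with these covariates was not computed. The bulb mean itself went with diet, at 1.5 to 1.8 log2 CPM in HFD females and 2.46 to 3.73 in ND females other than F1102. Only F1102, at 1.61, lay among the HFD females, so covariate and diet can hardly be told apart in females. The call of both *Aqp1* and *Prlr* was made without F1063 alone (*Aqp1* -1.24, *Prlr* -1.59), and that of *Prlr* also without ND female F1073 (-1.19).

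In males alone, 5 of the 10 genes were tested, and *Prlr* was lower on HFD, with a log2 fold change of -1.90 (SE 0.67, unadjusted p = 0.02, adjusted p = 0.556). Among all genes, 8.41% were called at the unadjusted threshold, 4.2% lower. The call was lost without ND male F1079 (-1.51), ND male F1080 (-1.66) or HFD male F1145 (-1.59), and by limma-voom (-1.69, unadjusted p = 0.0521). *Ttr* was at -2.27 (SE 1.46, unadjusted p = 0.168) with F1080 and at 0.50 without it. *Kl* was at -0.58 (unadjusted p = 0.088), and it passed without HFD male F1145 or ND male F1131 (-0.75 in each). *Aqp1*, at -0.94 (unadjusted p = 0.17), passed without HFD male F1145 (-1.59).

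With all 19 libraries the diet effect was not shown to differ between the sexes in any of the genes tested. In the interaction of diet and sex none of 7 genes tested passed the unadjusted threshold, which 5.21% of all genes did (2.38% with a positive and 2.83% with a negative difference), and the difference of females less males was 0.87 (SE 0.98, unadjusted p = 0.384) for *Prlr* and 2.08 (SE 2.23, unadjusted p = 0.365) for *Ttr*. DESeq2 and limma-voom called none either. *Ttr* passed it without ND female F1102 alone (4.48). Without the 3 libraries *Prlr* was at 0.56 and *Ttr* at -0.40 (unadjusted p = 0.484 and 0.715), and none of the 6 genes then tested passed. With no filter as well, *Folr1* passed it, at -2.73 (SE 0.93, unadjusted p = 0.00895, adjusted p = 0.254), on 0 to 10 reads a library, and with all 19 libraries and no filter it was at -1.16 (unadjusted p = 0.471).

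*Aqp1* was the only one of the 10 genes that differed between females and males after adjustment. With a term for diet its log2 fold change of female against male was -1.90 (SE 0.47, adjusted p = 0.0153 by edgeR), beside 11.3% of all genes, and 26.6% at the unadjusted threshold. ND males were at 9.91, 5.44, 3.12 and 10.2 RPM and HFD males at 3.97, 0.68, 2.15 and 7.74 RPM, while ND females were at 0.754 to 2.47 RPM with a median of 1.18. Of the 8 males, 6 lay above every female but F1063. The call held without each library in turn (-2.46 to -1.71) and without the 3 libraries (-2.60, adjusted p = 0.000983). Of the 8 olfactory bulb genes, 7 were lower in females, all 7 also after adjustment, with *Th* at -2.28 and *Eomes* at -3.30, and their summed level was 120 to 326 RPM in females and 118 to 698 RPM in males. With the mean of those genes as a covariate, *Aqp1* was at -0.54 (unadjusted p = 0.477, adjusted p = 0.818). The adjusted call was also lost with the thalamus mean as a covariate (-1.59, adjusted p = 0.179). *Ttr*, *Kl*, *Clic6*, *Prlr* and *Otx2* had adjusted p of 0.39 or more, and *Ttr* passed the unadjusted threshold only without ND male F1080 (3.14).

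Of the 17 further epithelium markers tested over both sexes, none was higher on HFD and 2 were lower at the unadjusted threshold, with a median of -0.10. Over all genes 6.99% were lower, so a count of 2 is no result about this list. *Slc29a4*, a monoamine transporter, was lower by edgeR with a log2 fold change of -0.45 (unadjusted p = 0.0209), a call lost without ND female F1074 (-0.32) or ND male F1079 (-0.35). *Sostdc1* was lower with -0.89 (unadjusted p = 0.0396), a call lost without any 1 of 10 libraries (-0.90 to -0.58), lowest in size without ND female F1102. Neither passed adjustment (0.296 and 0.368).

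The partners of these proteins were mostly near 0. Of 15 genes of fluid and ion transport, *Atp1b1*, a sodium pump subunit, was lower on HFD (-0.07, unadjusted p = 0.0396) and none was higher, and the list median was 0.02. Over all genes 6.99% were lower and 5.44% higher, and 1 gene in a list is within those shares. Of 19 genes of the ligand, hormone and vitamin list, *Stat5b*, which carries the signal of the prolactin receptor, was lower (-0.17, unadjusted p = 0.0193) and *Rbp4*, the retinol carrier that binds transthyretin, was higher (0.21, unadjusted p = 0.0396), with a list median of -0.08. None of the 3 passed adjustment (0.289 to 0.368). *Atp1b1* lost its call without any 1 of 11 libraries, *Rbp4* without any 1 of 8 and *Stat5b* without 1 (-0.12).

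Some genes of other regions and cells also passed the unadjusted threshold over both sexes, as did 12.4% of all genes, 6.99% lower and 5.44% higher. Of 8 olfactory bulb genes 6 were lower on HFD at the unadjusted threshold and none higher (none in either direction in a fit with no term for sex), with *Sp8* at -1.34 and *Th* at -1.17. Of 7 thalamus genes 3 were lower, *Zic4* (-1.16), *Calb2* (-1.13) and *Prkcd* (-0.75), while *Tcf7l2*, *Ramp3*, *Slc17a6* and *Lef1* were not called. The summed thalamus level was 88.6 to 149 RPM in ND females, 63.9 to 81.5 in HFD females, 121 to 231 in ND males and 56.9 to 155 in HFD males, so that the female groups did not overlap. *Calb2* alone reached 131 RPM outside the 3 libraries. Its median was 15.9 RPM in females and 63.3 in males, and that of the bulb gene *Th* was 3.98 and 18.8. The sum can therefore not be read as thalamus alone. Of 12 ependyma genes 2 were lower, *Hydin* (-0.78) and *Rsph4a* (-0.32), and *Rsph4a* lost its call without any 1 of 11 libraries. Of 7 hippocampus genes 1 was lower, *Fibcd1* (-0.64). In lists this short, counts of 1 or 2 are not set apart from the 6.99% of all genes. All 5 red cell genes were higher, *Alas2* by 1.92 and *Hbb-bs* by 2.50. None of 14 genes of meninges and 10 of striatum passed the threshold in either direction. None of these genes passed adjustment (smallest adjusted p = 0.111, *Zic4*). Beyond the covariate values given above, the part of these regions in the differences of the 10 genes was not tested.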

How the data were processed

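Cortex RNA of 19 APP23 mice was sequenced on a HiSeq 2000. Subread and featureCounts on mm9 (Subread 1.4.0 by the submitters' processing notes) gave the count per gene that the authors deposited. The authors also deposited the RPM of each gene, which was given back from the counts and library totals within 5e-06. Every one of the 14996 genes is over 1 RPM in at least 2 libraries, and they hold 99.2% of each total. Strand is not given in the sources used here, so reads of overlapping antisense genes cannot be told apart.

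Groups were taken from the sample labels, and 19 of 19 libraries fitted the labelled sex by their sex-linked genes. The labels do not say that litters or runs were shared.

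The 10 genes and the 11 other gene lists were chosen with earlier results of these data known, and a list of 6 cholinergic genes was added after the values were seen. Named genes were the 10, the 12 most like their mean profile, and the 4 with the smallest p for diet in each list; others are named where a value singles them out. Tests used edgeR 4.0.16 (glmQLFit, robust with statmod 1.5.0; TMM; filterByExpr with a minimum count of 10 and total of 15) in R 4.3.3, with Benjamini-Hochberg adjustment over all genes tested and the study's unadjusted threshold of 0.05. The SE is the log2 fold change over the square root of F. Levels in log2 CPM used TMM and a prior count of 2. Levels per kilobase used merged exon lengths of GENCODE vM21. Alternatives were DESeq2 1.42.0, limma-voom (limma 3.58.1), RLE factors, library totals, no filter, no robust estimation, no term for sex and each library left out. Leaving out 3 libraries and adding a list mean as a covariate were chosen after seeing the data. The main test was checked on simulated counts. Figures were drawn with matplotlib 3.10.9.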

Additional observations from a re-analysis of the deposited data

Results flagged for a closer look

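In 17 of 40 sets of 1 gene in 1 group, the highest mouse lay apart from its group by Dixon's 95% criterion on RPM. The criterion covers both ends, so chance gives about 1 in 20 for the highest or lowest of separate normal values, and less for the highest alone. Over all genes of the table in the 4 groups the highest mouse lay apart in 3.29% of 59978 sets, and either end in 5.43%. The 10 genes vary together, so their sets are not separate. Of the 17, 16 fell in the 3 libraries highest in *Ttr*, and 13 of these 16 follow from the choice of libraries and genes: 3 are *Ttr* itself, by which the libraries were picked, and 10 are *Folr1*, *Kcne2*, *Slc4a5* and *Tmem72*, which are over 1 RPM only in these libraries and are in the table for that reason. They are given as values. In ND female F1102 these were *Ttr* at 341 RPM (next mouse 23.9), *Folr1* at 2.69 (0.685), *Kcne2* at 2.92 (0.242), *Slc4a5* at 3.31 (0.233), *Prlr* at 12.1 (5.62) and *Tmem72* at 2.08 (0.466). In HFD female F1063 they were *Ttr* at 243 RPM (25.5), *Folr1* at 1.74 (0.233), *Kcne2* at 2.03 (0.422), *Slc4a5* at 3.11 (0.311), *Aqp1* at 5.07 (0.704), *Prlr* at 5.57 (2.18) and *Tmem72* at 1.01 (0.319). In ND male F1080 they were *Ttr* at 143 RPM (11.7), *Kcne2* at 1.44 (0.0991) and *Slc4a5* at 1.23 (0.198). The remaining one was *Slc4a5* in HFD male F1065 at 0.291 RPM (0.098), which is 3 reads.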

How the results depend on the processing

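Each mouse was on 1 diet and gave 1 library, and the labels name no pairs, so no paired analysis was made. The number of the 10 genes past adjustment stayed at 0 in all diet comparisons and at 1, *Aqp1*, between the sexes under each alternative, except that *Aqp1* was lost with the olfactory bulb or the thalamus covariate (0) and *Kl* joined it with the covariate of further epithelium markers (2). The number past the unadjusted threshold over both sexes was 1 to 4 when 1 library was left out, 1 with the olfactory bulb and 0 with the thalamus covariate. The 4 without HFD female F1063 were *Ttr*, *Aqp1*, *Prlr* and *Otx2*. In females it was 0 to 2 with 1 library left out, 2 without the 3 libraries, 5 with the olfactory bulb (*Folr1*, *Kcne2*, *Kl*, *Prlr*, *Tmem72*) and 2 with the epithelium covariate (*Prlr*, *Slc4a5*). The olfactory bulb mean itself went with diet in females. In males it was 0 to 2 with 1 library left out, 0 by limma-voom, without the 3 libraries and with the thalamus or epithelium covariate, and 2 (*Otx2*, *Prlr*) with no filter. For the interaction it was 0 to 1 and between the sexes 1 to 2 with 1 library left out, and between the sexes 0 with the olfactory bulb and 2 with the thalamus or epithelium covariate. The median r of the 45 pairs was 0.67 on log2(RPM + 1), 0.18 without the 3 libraries and 0.47 to 0.64 with 1 library left out. Directions turned for values that had not passed the threshold. In limma-voom in females, *Aqp1* was -0.50 and *Ttr* 0.02. Without the 3 libraries, *Ttr* was 0.24 over both sexes, 0.09 in females, 0.50 in males and -0.40 in the interaction, *Aqp1* -1.15 in females and -0.10 in the interaction, and *Clic6* 0.03 in females. With no filter as well, a setting added after seeing the data, these values were the same to 2 decimals except for *Aqp1* at -1.16 in females, and the number past the unadjusted threshold was 2 in females, 0 in males and 1 (*Folr1*) in the interaction. With the olfactory bulb covariate, *Aqp1* was 0.23 over both sexes, and *Prlr* -0.32 and *Ttr* -1.94 between the sexes. With the thalamus covariate, *Clic6* was 0.54 over both sexes and 1.35 in females, *Aqp1* -2.22 in females and 0.03 in males, *Otx2* 0.04 in females and 0.36 between the sexes, and *Kl* 0.24 between the sexes. With the epithelium covariate, *Ttr* was 0.64 over both sexes, 0.98 in females and 0.09 in males, and *Kl* 0.06 in females. *Kl* between the sexes was 0.01 by DESeq2 and 0 with no filter. With 1 library left out, *Ttr* ranged from -2.30 to 0.46 over both sexes, -2.32 to 2.21 in females, -2.76 to 0.50 in males and -0.68 to 4.48 in the interaction, *Aqp1* from -1.24 to 0.34 in females and -0.30 to 1.70 in the interaction, *Kl* from -0.65 to 0.15 in females, -0.09 to 0.72 in the interaction and -0.26 to 0.16 between the sexes, and *Otx2* from -0.30 to 0.04 between the sexes. Apart from what the settings remove, the causes were not tested. *Folr1*, *Kcne2*, *Slc4a5* and *Tmem72* had a median of 1 to 3.5 reads in the other 16 libraries, which limits what can be detected in them there.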
